A study of Mus musculus with 16 samples.

Results

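The comparison described here is between mouse embryonic stem (ES) cells given activin A and mouse ES cells given SB431542, restricted to the RNA-seq libraries in which Trim33 was high. Of the 16 libraries of the series, 8 are in the table that holds Trim33 wild-type and knockout cells with either agent, and 4 of these 8 read above 15 for Trim33. The 4 libraries are replicates 1 and 2 labelled wild type with activin A and replicates 1 and 2 labelled Trim33 knockout with SB431542. The members were thus chosen by a measured value, and the level of Trim33 is given as a description, without a test.

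All 4 libraries carry the labels of the E14Tg2a.IV line, an ES line kept feeder-free with leukaemia inhibitory factor (LIF) and 15% serum, and of the strain C57BL/6. The growth protocol names the CCE line as well and does not say which samples it concerns. Activin A was given at 50 ng/ml and SB431542 at 10 µM, each for 2 h. The table holds no untreated library, so a gene that was higher with activin A cannot be told apart from a gene that was lower with SB431542. The labels do not say that the replicates were grown as separate cultures, so the p-values cover only how far these libraries vary, and that variation may be technical.

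Activin and Nodal are secreted ligands of the TGF-beta family that bring type I and type II receptor kinases together. The type I receptor then phosphorylates SMAD2 and SMAD3, which join SMAD4 and enter the nucleus to switch target genes, several of which encode inhibitors of the same pathway. SB431542 blocks the kinase of the activin, Nodal and TGF-beta type I receptors. TRIM33 is a chromatin reader that can bind phosphorylated SMAD2 and SMAD3, and Lefty1 and Lefty2 are secreted antagonists of Nodal.

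Trim33 read 20.1 and 23.5 RPKM (reads scaled to gene length and library size) with activin A and 18.3 and 24.6 RPKM in the SB431542 libraries labelled knockout. The knockout label of these SB431542 libraries is therefore contradicted by their Trim33 level. The highest library outside the choice read 2.94 RPKM and the lowest one inside read 18.3 RPKM. The Y-linked gene Eif2s3y read 38.3 and 41.0 RPKM with activin A and 40.0 and 38.5 RPKM in the SB431542 libraries labelled knockout, and at most 0.143 RPKM in the 4 Trim33-low libraries. In both Trim33 and Eif2s3y the 4 chosen libraries overlapped and stood clear of the other 4. The genotype label still differs between the groups compared, so an effect of whatever that label marks and an effect of the treatment cannot be told apart from these 4 libraries alone.

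Depth worked out from genes with a single exon was 31100000 to 33500000 reads, so a value of 1 RPKM stands for 31.1 to 33.5 reads per kilobase. The ES cell genes Pou5f1 (805 to 1019 RPKM), Sox2 (200 to 226) and Nanog (67.1 to 152) were high in all 4. Markers of other cells that such a culture can hold were at similar summed levels in both groups: 292 to 318 RPKM with activin A and 297 to 312 in the SB431542 libraries labelled knockout for 13 fibroblast and feeder cell markers, 153 to 187 and 149 to 182 for 14 primitive endoderm markers, and 159 to 212 and 156 to 211 for 13 trophectoderm markers. The 12 neural markers summed to 104 to 110 and 109 to 127 RPKM. Only some markers stayed under 1 RPKM in all 4: 5 of 13 fibroblast and feeder, 7 of 14 primitive endoderm, 2 of 13 trophectoderm and 9 of 15 streak and mesendoderm genes. Col3a1, Gata6, Gata4, Sox17 and Mesp1, picked after their values were seen, were among them. Col1a1 was not, at 3.21 and 2.29 RPKM with activin A and 2.42 and 2.10 RPKM with SB431542. Vim, also in the fibroblast and feeder list, read 127 and 137 RPKM with activin A and 143 and 136 RPKM with SB431542. A sum that holds Vim says little about markers as low as Col1a1. The 12 two-cell-stage genes in the table all stayed under 1 RPKM. Over all genes tested, the SD of log2 differences was 0.40 between the 2 SB431542 libraries and 0.27 between the 2 activin A libraries. Across the groups it was 0.24 and 0.30 for the pairs of replicates 2 and of replicates 1, and 0.31 and 0.36 for pairs with unlike numbers. The SB431542 pair was thus wider than every pair across groups, and the activin A pair was closer than 3 of those 4.

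Of 11147 genes tested on log2(RPKM + 1) with limma and Benjamini-Hochberg adjustment, 4 were higher with activin A at an adjusted p under 0.05 and 0 were lower. The 4 genes are Lefty1, Sumo2, Fgf15 and Smad7, or 0.0359% of those tested. At an unadjusted p under 0.05 there were 187 genes (1.68%), of which 66 were lower (0.592% of all tested). That share is below the 0.05 that a well calibrated test gives when no gene differs. The 4 calls are therefore not a measure of how many genes differed. When all 8 libraries entered the fit, 5 were higher (0.042%) and 0 lower. A gene that missed the threshold is not shown to be equal in both groups. In bulk samples a change in the share of cells that express a gene and a change in its level per cell cannot be told apart.

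Lefty1 (chromosome 1, positions 180935022 to 180938400, plus strand, 4 exons; GRCm38 here and below) showed the largest difference of all genes tested. It read 296 and 373 RPKM with activin A and 17.4 and 30.6 RPKM in the SB431542 libraries labelled knockout. Both activin A libraries were far above both SB431542 libraries, and the ratio of the means was 14.0. The log2 difference was 3.79 ± 0.25 (SE, n = 2 and 2, adjusted p = 0.00213 by limma with Benjamini-Hochberg adjustment).

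Lefty2, its neighbour on the same strand (positions 180893108 to 180899103), read 128 and 196 RPKM with activin A and 13.7 and 34.8 RPKM in the SB431542 libraries labelled knockout. The groups stood apart here too, with a wider ratio between the SB431542 replicates than between the activin A replicates. Its log2 difference of 2.80 ± 0.38 did not pass (adjusted p = 0.105, limma). Of the 50-base words of Lefty1 transcripts 17.9% also occur in Lefty2 transcripts, so reads in those stretches could be counted for either gene.

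Smad7, the inhibitory SMAD that blocks the activated receptors (chromosome 18, positions 75367529 to 75395935, plus strand, 4 exons), read 26.8 and 22.3 RPKM with activin A and 4.83 and 2.54 RPKM in the SB431542 libraries labelled knockout. Both activin A values lay far above both SB431542 values. The log2 difference was 2.49 ± 0.26 (adjusted p = 0.0324, limma), and with quantile normalization it no longer passed (adjusted p = 0.0864, limma).

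Fgf15, a secreted fibroblast growth factor (chromosome 7, positions 144896531 to 144900953, plus strand, 3 exons), read 15.1 and 13.0 RPKM with activin A and 2.68 and 2.34 RPKM in the SB431542 libraries labelled knockout. Replicates lay close together in both groups. The log2 difference was 2.10 ± 0.19 (adjusted p = 0.0194, limma), and 21.3% of its 50-base words also occur in transcripts of 7 other genes. Without the filter on low values Lefty1, Fgf15 and Smad7 no longer passed (adjusted p = 0.267, 0.271 and 0.606, limma).

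**Figure D1:**
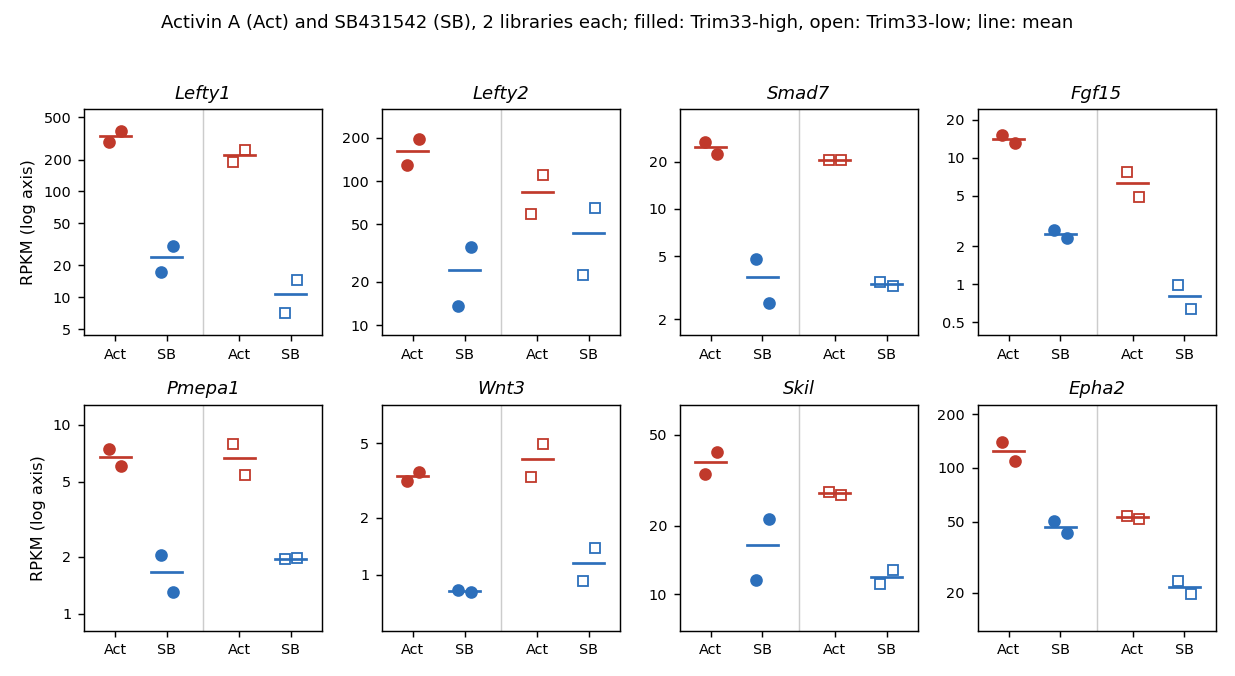
RPKM on a log axis of 8 genes in each library with activin A (Act, red) or SB431542 (SB, blue), with the Trim33-high libraries as filled circles, the Trim33-low libraries as open squares and the mean of 2 as a line. In the Trim33-high libraries each gene has both activin A values above both SB431542 values, as for Lefty1 at 296 and 373 against 17.4 and 30.6 RPKM.

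The pathway's inhibitors were described as a list of 14 genes, of which 12 could be tested. Of these, 2 passed (Lefty1 and Smad7) and 8 of 12 had both activin A values above both SB431542 values, where 8.88% of all genes tested did; 0 of 12 lay the other way, against 11.9% of all genes. Their median log2 difference was 0.36, against -0.01 over all genes tested. The list was chosen with earlier results of these data known and is not independent evidence of a direction. Pmepa1, a membrane protein that holds back SMAD2 and SMAD3, read 7.47 and 6.08 against 2.04 and 1.30 RPKM. Skil, which encodes the SMAD co-repressor SnoN, read 33.8 and 42.1 against 11.6 and 21.3 RPKM. Both genes stood apart without passing, with log2 differences of 1.55 ± 0.23 (adjusted p = 0.176, limma) and 1.21 ± 0.26 (adjusted p = 0.711, limma). The related co-repressor gene Ski had a log2 difference of 0.44. The activin-binding protein gene Fst had overlapping groups and a log2 difference of -0.29. Tgif1, a homeobox repressor of SMAD targets, overlapped as well, with 0.08.

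Of 17 other target genes of activin and Nodal 13 could be tested and 0 passed. Wnt3 and Fgf8 reached 1 RPKM only with activin A, so the filter on low values fixed their direction. Of the other 11, 6 had groups apart with activin A higher, where 8.61% of all genes that reached 1 RPKM in both groups did, and 0 the other way (11.6% of all). The median log2 difference of the 11 was 0.36. Wnt3, a ligand needed to form the primitive streak, read 3.16 and 3.51 RPKM with activin A and 0.823 and 0.804 RPKM in the SB431542 libraries labelled knockout, with a log2 difference of 1.26 ± 0.20 (adjusted p = 0.238, limma). Both SB431542 values of Wnt3 were under 1 RPKM, where adding 1 before taking logs makes the difference look smaller. Eomes, a T-box gene of the streak, followed at 3.12 and 2.75 against 1.23 and 0.890 RPKM, a log2 difference of 0.94.

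Among targets with a wider role, Ctgf, which encodes a matricellular protein, differed by 0.67 on the log2 scale. Nodal itself read 43.0 and 41.2 against 34.9 and 28.4 RPKM, and its co-receptor gene Tdgf1 read 685 and 760 against 553 and 571 RPKM. These 3 genes stood apart in the same direction, but none passed (adjusted p = 1.00 for each, limma). The classic targets Gsc, Foxa2, Lhx1 and Mixl1 stayed under 1 RPKM in all 4 libraries and were not tested. The streak gene T varied more within the groups, at 4.42 and 9.85 against 4.34 and 8.04 RPKM, than between them.

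**Figure D2:**
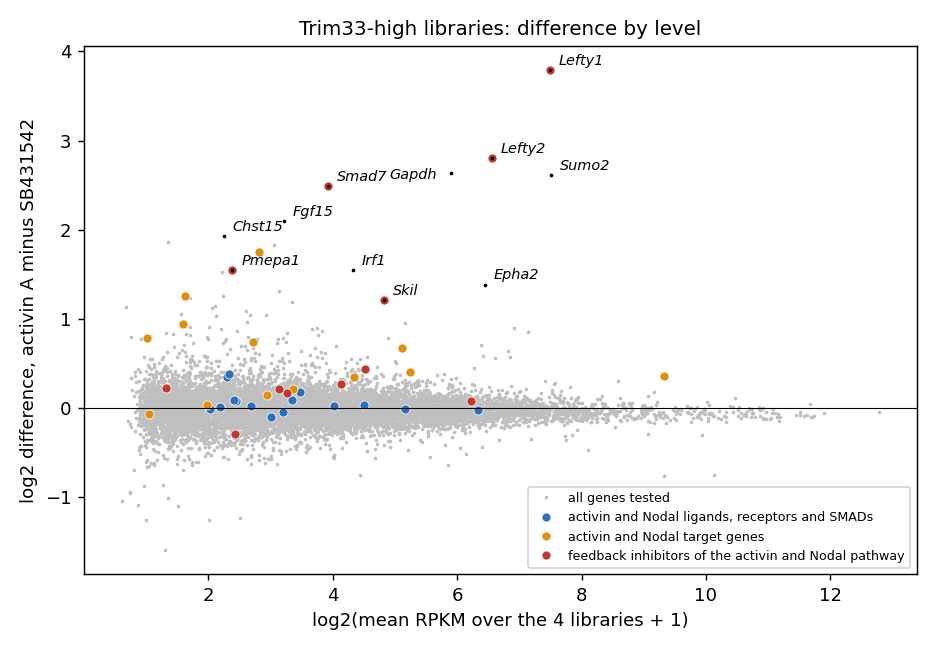
Each point is a gene tested in the 4 Trim33-high libraries, with log2 of the mean RPKM plus 1 on the horizontal axis and the log2 difference of activin A minus SB431542 on the vertical axis. The coloured points mark 3 gene lists; Lefty1 at 3.79 is the highest point, and the points of the ligands, receptors and SMADs lie near 0.

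The genes that carry the signal differed little. Of 21 genes for ligands, receptors, SMADs and their partners, leaving out Trim33, 14 could be tested and 0 passed. Groups stood apart with activin A higher in 1 of 14 (Smad2, by 0.10), near the 8.88% of all genes tested. They stood apart the other way in 0 (11.9% of all), and the median log2 difference was 0.02. The signalling SMAD genes Smad3 and Smad4 had log2 differences of -0.01 and 0.02, with overlapping groups. Foxh1, the forkhead partner of SMAD2, read 33.6 and 35.8 against 34.1 and 35.5 RPKM, and the 95% interval of its log2 difference ran from -0.31 to 0.30. The activin type I receptor gene Acvr1b differed by 0.08 and the TGF-beta type I receptor gene Tgfbr1 by 0.18, each with overlapping groups. Acvr1c, which encodes a Nodal type I receptor, and Gdf1, which encodes a Nodal-like ligand, were listed at 0 in all 4 libraries. The 95% intervals of Acvr1b (-0.56 to 0.73) and Tgfbr1 (-0.41 to 0.78) leave room for differences of more than 1.5-fold.

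The Eph receptors and ephrins, a family of contact signals between cells, were the next group with large members. Of 17 genes 14 could be tested, 0 passed, and 7 of 14 had groups apart with activin A higher (8.88% of all genes tested), with 0 the other way (11.9% of all) and a median log2 difference of 0.06. Epha2, a receptor tyrosine kinase of ES cells, read 140 and 109 RPKM with activin A and 50.5 and 43.5 RPKM in the SB431542 libraries labelled knockout. Its groups were well apart, with a log2 difference of 1.38 ± 0.16 that missed the threshold in the 4 libraries (adjusted p = 0.0654, limma) and passed it in the fit over all 8 (adjusted p = 0.0238, limma). Efnb1, which encodes the transmembrane ligand ephrin-B1, read 6.06 and 5.28 against 1.70 and 1.86 RPKM. Its log2 difference of 1.26 ± 0.20 did not pass (adjusted p = 0.238, limma).

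Promoter sequences were looked up in RefSeq (GRCm38.p6) for 11 genes, namely the 4 that passed and the members of the feedback, target and Eph lists that were at least 2-fold apart, and 4 with a single listed start were found. They are shown because SMAD3 and SMAD4 bind the short word CAGAC, or GTCTG on the other strand, at many of their targets. Each line gives the 250 bases before the start of transcription in lower case, 5′ to 3′ on the gene's strand, with that word in capitals. The windows are chr11:115536231-115536480 (minus strand) for Sumo2, chr4:141300971-141301220 (plus) for Epha2, chrX:99135811-99136060 (plus) for Efnb1 and chr11:103773925-103774174 (plus) for Wnt3.
Sumo2: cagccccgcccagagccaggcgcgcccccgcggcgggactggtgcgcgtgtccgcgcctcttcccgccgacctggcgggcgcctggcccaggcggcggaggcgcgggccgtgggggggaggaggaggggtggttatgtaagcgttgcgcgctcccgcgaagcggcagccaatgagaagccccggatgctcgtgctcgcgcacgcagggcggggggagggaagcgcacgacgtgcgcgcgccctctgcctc
Epha2: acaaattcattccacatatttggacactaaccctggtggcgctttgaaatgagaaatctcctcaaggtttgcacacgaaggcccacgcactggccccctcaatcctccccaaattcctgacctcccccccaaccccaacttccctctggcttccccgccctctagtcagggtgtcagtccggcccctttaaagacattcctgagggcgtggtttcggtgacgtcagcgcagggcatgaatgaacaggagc
Efnb1: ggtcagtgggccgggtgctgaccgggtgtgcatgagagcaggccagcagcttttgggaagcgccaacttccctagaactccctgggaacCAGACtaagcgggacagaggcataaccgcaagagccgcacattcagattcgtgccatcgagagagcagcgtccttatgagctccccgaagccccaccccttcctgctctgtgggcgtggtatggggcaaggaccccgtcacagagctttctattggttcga
Wnt3: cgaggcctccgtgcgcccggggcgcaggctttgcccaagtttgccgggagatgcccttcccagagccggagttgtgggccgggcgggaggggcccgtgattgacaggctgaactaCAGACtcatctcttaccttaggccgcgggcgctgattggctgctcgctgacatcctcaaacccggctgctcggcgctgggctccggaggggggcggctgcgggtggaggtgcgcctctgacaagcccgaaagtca

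The word occurred once each in the Efnb1 and Wnt3 windows, starting 161 and 135 bases before the start, and not in the Sumo2 or Epha2 windows. Of 32851 RefSeq promoter windows of the same length 42.2% hold it, so the word is common. The FOXH1 word AATCCACA or TGTGGATT occurred in 0 of these 4 windows and in 0.718% of all windows.

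Counting every gene, 28 were at least 2-fold higher with activin A on the log2(RPKM + 1) scale with groups apart (0.251%), and 7 were at least 2-fold lower (0.0628%). Of the 28, 3 reached 1 RPKM only with activin A, and of the 7, 4 only with SB431542, so the filter on low values fixed their direction. Of the 28, 7 have names of microRNA or small nucleolar or Cajal body RNA genes, and so do 6 of the 7 lower ones. Chst15, Bcar3, Trim36, Prdm1, Fzd10, Tmem63a, Ccl20, Mt1, Mt2, Lifr and Sumo3 are named after their values were seen. Chst15, a sulfotransferase of chondroitin sulfate, read 6.33 and 6.65 against 0.645 and 1.35 RPKM, a log2 difference of 1.93 ± 0.24 (adjusted p = 0.0791, limma). It passed in the fit over all 8 libraries (adjusted p = 0.0168, limma), and 16.5% of its 50-base words occur in transcripts of other genes. Irf1, a transcription factor of the interferon response, read 23.7 and 34.1 against 8.23 and 10.0 RPKM, a log2 difference of 1.55 ± 0.21 (adjusted p = 0.105, limma). Of the 10 testable genes of the interferon list 0 passed, 1 (Irf1) stood apart with activin A higher, near the 8.88% of all genes, and 3 stood apart the other way (11.9% of all).

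Smaller differences of at least 2-fold included Bcar3, an adaptor protein gene, at 1.31, and Trim36, a ubiquitin ligase gene, at 1.15. They also included Prdm1, a repressor needed for the germ line, at 1.06, and the Wnt receptor gene Fzd10 at 1.04. None of these 4 passed. Tmem63a, an ion channel gene that follows Lefty1 on the same strand of chromosome 1 (positions 180942344 to 180975112), read 6.03 and 8.35 against 2.07 and 3.77 RPKM. Its groups stood apart with activin A higher, at a log2 difference of 1.08 that did not pass (adjusted p = 1.00, limma).

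The 7 lower genes were low throughout, and apart from the chemokine gene Ccl20 they are small RNA genes. Ccl20 read 0.0751 and 0.240 against 1.09 and 2.60 RPKM and was tested only because of its SB431542 values. Among well measured genes, the metallothionein genes Mt1 and Mt2 stood apart with activin A lower, as 11.9% of all genes tested did. Mt1 read 572 and 386 RPKM with activin A and 858 and 741 RPKM in the SB431542 libraries labelled knockout, a log2 difference of -0.76 ± 0.21 that did not pass (adjusted p = 1.00, limma). Mt2 differed by -0.74. In the Trim33-low libraries the groups overlapped for both genes, at log2 differences of -0.48 for Mt1 and -0.11 for Mt2.

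Pluripotency genes showed no common direction. Of 11 core genes 0 passed, 2 stood apart with activin A higher, Tdgf1 (0.36) and Zfp281 (0.22), and 0 lower. Over all genes tested 8.88% stood apart higher and 11.9% lower. Nanog read 152 and 118 against 119 and 67.1 RPKM, so the groups overlapped. Of 16 naive genes 0 passed. Klf4, a transcription factor gene of the naive state, read 44.3 and 30.5 against 65.7 and 44.9 RPKM, with activin A lower in a log2 difference of -0.55. Gbx2, a homeobox gene, differed by -0.56 and Tfcp2l1 by 0.36, all 3 with groups apart. With 1 of 16 higher and 2 lower, the naive list was near the shares over all genes. Of 14 formative genes 0 passed, 0 stood apart higher and 1 lower, and the median log2 difference was 0.05.

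In the bone morphogenetic protein (BMP) list, the sister pathway that signals through SMAD1 and SMAD5, 15 of 21 genes could be tested, 0 passed, 6 of 15 stood apart with activin A higher and 0 lower. Here and in the lists that follow the shares over all genes tested were 8.88% higher and 11.9% lower. The largest were the inhibitory gene Smad6 (0.48) and Smad5 (0.42). Among 13 LIF and STAT3 genes 0 passed, 2 stood apart with activin A higher and 2 lower (Klf4 and Lifr, the latter by -0.20), and the median log2 difference was -0.01. The kinase gene Pim1 read 118 and 87.8 against 71.4 and 54.3 RPKM. Of 14 testable feedback genes of the ERK pathway 0 passed, 3 stood apart with activin A higher and 4 lower, with Spry4 at -0.47. Of 18 cholesterol synthesis genes 0 passed, 5 stood apart lower and the median log2 difference was -0.12. Of 15 testable NRF2 targets 0 passed, 4 stood apart lower and 0 higher, and the median log2 difference was -0.04, with the haem oxygenase gene Hmox1 at -0.36. Of 14 testable WNT targets and regulators 0 passed. Without Wnt3, 3 of 13 stood apart with activin A higher and 0 lower, with a median log2 difference of 0.14. In the p53, ATF4, heat shock and immediate early lists 0 genes passed, and the medians were -0.05, -0.04, 0.02 and 0.04. The streak and mesendoderm list summed to 16.7 to 24.5 RPKM with activin A and 12.9 to 15.6 RPKM in the SB431542 libraries labelled knockout, with 9 of its 15 genes under 1 RPKM throughout. Of its 5 tested genes Wnt3 and Fgf8 reached 1 RPKM only with activin A. Of the other 3, 1 stood apart higher (Eomes) and 1 lower (Hhex). Whether a change in the kinds of cells present moved this sum was not tested.

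Sumo2, which belongs to none of these lists, gave the smallest p of all genes tested. It encodes a small ubiquitin-like protein that is attached to other proteins (chromosome 11, positions 115523102 to 115536276, minus strand). It read 315 and 306 RPKM with activin A and 50.7 and 49.4 RPKM in the SB431542 libraries labelled knockout. Replicates almost coincided in both groups, and the log2 difference was 2.61 ± 0.12 (adjusted p = 0.000385, limma). In the fit over all 8 libraries it did not pass (adjusted p = 0.159, limma). Its relative Sumo3 differed by -0.08. Of its 50-base words 19.2% occur in transcripts of 14 other genes.

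Gapdh, the glycolytic enzyme gene often used as a reference, showed a log2 difference of similar size but unequal replicates. It read 150 and 55.6 RPKM with activin A and 18.4 and 10.4 RPKM in the SB431542 libraries labelled knockout. The groups stood apart, and the log2 difference of 2.63 ± 0.42 did not pass (adjusted p = 0.238, limma). Of its 50-base words 25.1% occur in transcripts of 223 other genes, and the other 14 testable genes of the glycolysis list had log2 differences of at most 0.26.

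The 4 Trim33-low libraries of the same table, labelled knockout with activin A and wild type with SB431542, give the same comparison of agents with no library in common. There 11566 genes were tested and 1 passed, Smad7 (0.00865%), with 0 lower and 243 at an unadjusted p under 0.05 (2.10%, limma). Of the 28 genes at least 2-fold higher in the Trim33-high libraries, 26 were tested in the Trim33-low ones and 20 stood apart in the same direction, where 11.5% of all genes did. Of the 7 lower genes 2 could be tested there, and 0 stood apart lower.

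Lefty1 read 191 and 248 RPKM with activin A and 7.06 and 14.7 RPKM with SB431542 in the Trim33-low libraries, a log2 difference of 4.28. Smad7 (2.31) and Fgf15 (2.00) were likewise apart there. Lefty2 was not: it read 59.1 and 110 RPKM with activin A and 22.3 and 65.2 RPKM with SB431542, so the groups overlapped at a log2 difference of 1.06. The test of the difference between the library sets gave 1.75 ± 0.77 for Lefty2 (unadjusted p = 0.0507, adjusted p = 1.00, limma). Over 11914 genes 0 passed that test and 76 had an unadjusted p under 0.05 (0.638%, limma). The 2 library sets also differ in Y-linked genes, as given for Eif2s3y, so a difference between them would not belong to Trim33 alone.

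**Figure D3:**
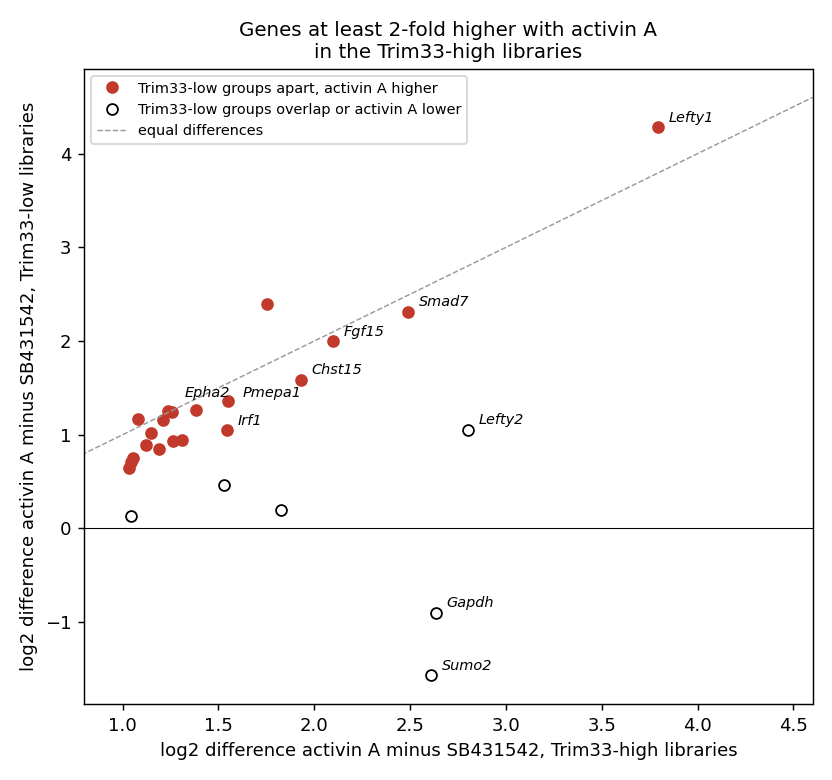
Genes at least 2-fold higher with activin A in the Trim33-high libraries, with the log2 difference there on the horizontal axis and the log2 difference in the Trim33-low libraries on the vertical axis; the dashed line marks equal differences. Of the 26 genes drawn 20 are filled because both Trim33-low activin A values exceed both SB431542 values, while Sumo2 (-1.57) and Gapdh (-0.90) lie below 0.

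Sumo2 and Gapdh went the other way in the Trim33-low libraries. Sumo2 read 46.2 and 148 RPKM with activin A and 302 and 204 RPKM with SB431542, a log2 difference of -1.57. Gapdh read 17.7 and 17.9 RPKM with activin A and 18.7 and 61.8 RPKM with SB431542, a log2 difference of -0.90. For both genes every library labelled wild type was above every library labelled knockout, whichever the agent and the Trim33 level, although for Gapdh the nearest pair was 18.7 and 18.4 RPKM. The test of the difference between the library sets is, for these crossed labels, also the test of wild-type against knockout labels. It gave 4.18 ± 0.61 for Sumo2 (unadjusted p = 8.23e-05, adjusted p = 0.526, limma) and 3.53 ± 0.80 for Gapdh (unadjusted p = 0.00171, adjusted p = 1.00, limma). Read by label, these values are the summed wild-type group means minus the summed knockout group means, not a difference between averages. What the genotype label marks in these libraries was not tested.

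**Figure D4:**
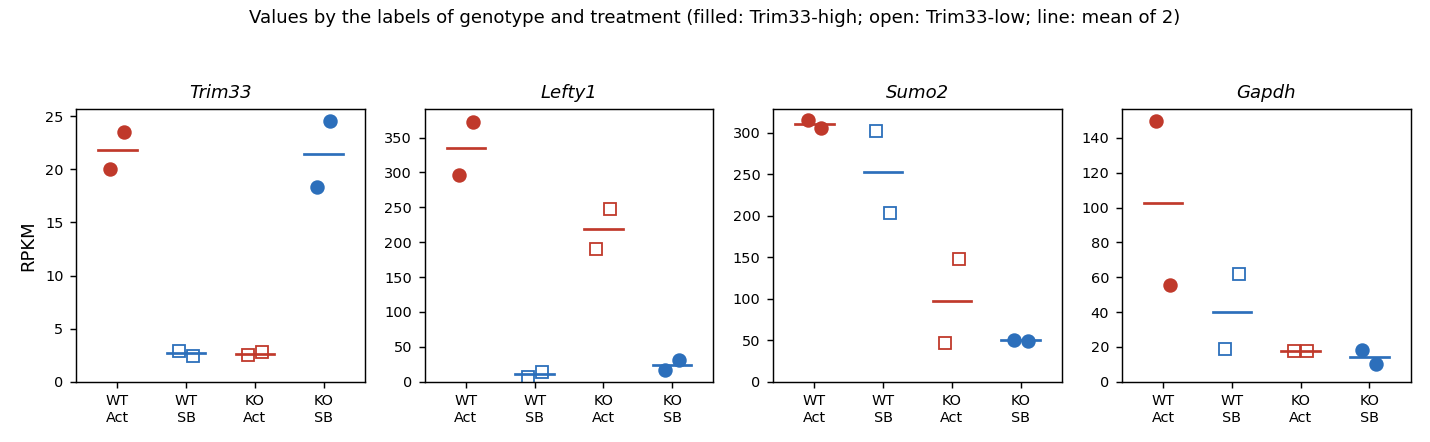
RPKM of Trim33, Lefty1, Sumo2 and Gapdh in the 8 libraries by their labels of genotype (WT, KO) and agent (Act, SB), with Trim33-high libraries filled, Trim33-low libraries open and a line at the mean of 2. Lefty1 reads 191 RPKM or more with activin A and 30.6 RPKM or less with SB431542 under either label, while the Sumo2 values of 204 and more all carry the wild-type label.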

How the data were processed

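Total RNA of mouse ES cells was made into libraries with an Illumina TruSeq kit, per the labels' protocols. The authors deposited 1 table of normalised values for the 8 libraries compared here. No unit is written in it, and the deposited values were taken as RPKM. Values of 2281 genes with a single exon were multiplied by RefSeq length. The depth of each library was set where most values below 20 reads became whole. At that depth 91.0% to 94.5% of 233 to 288 such values per library were whole to within 0.05. The depth was fitted to this share, so the share is a maximum. The submitters' processing notes list the build mm10 and, with no role for any tool, DESeq2, featureCounts 2.0.1, SAMtools 1.9, Bowtie2 2.3.3 and FastQC 0.11.5. Whether strand entered the counting is not stated there.

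Each column's name gave its sample, and libraries were taken where Trim33 was above 15. Of 24421 names 27 that look like dates were left out. Genes with at least 1 RPKM in at least 2 libraries were tested on log2(RPKM + 1), which understates the change of low genes, with R 4.3.3 and limma 3.58.1 (lmFit and trended eBayes, two-sided). P-values were adjusted by Benjamini-Hochberg over every gene in the fit, and a gene was called at an adjusted p below 0.05. No count test was run because the values are not counts. The Trim33-high fit used 4 libraries with 2 residual degrees of freedom, and the test of the difference between library sets used group means over 8 libraries with 4. The fit was also run on simulated data with independent libraries and a spread drawn from limma's own model. That run cannot show how the fit behaves where the real libraries depart from this model.

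The members and the 26 gene lists were chosen with earlier results of these data known. Named genes are Trim33, Lefty1 and Lefty2, called members of the pathway lists, the 12 called genes with the largest difference each way whose groups do not overlap (without numbered Gm, Rik, LOC, microRNA, small nucleolar RNA and pseudogene names), and up to 4 members of every other list with the smallest p. Other names are said to have been picked after their values were seen, and the other members of the 3 pathway lists are named by their roles. The promoter rule allowed called list members, which gave none, so the 4 sequences shown were chosen after their values were seen. Coordinates and shared 50-base words come from GENCODE for GRCm38, the assembly also called mm10, with Python 3.11.15, pandas 2.3.3, numpy 2.4.6 and matplotlib 3.10.9 for the annotation and figures. Alternatives covered scaling, the pseudocount, the filter, the libraries in the fit, the replicate block and leaving out each library. Results for some named genes are not reported here.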

Additional observations from a re-analysis of the deposited data

Results flagged for a closer look

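Sumo2 differed in direction between the library sets with groups apart in each: its log2 difference of activin A minus SB431542 was 2.61 in the Trim33-high and -1.57 in the Trim33-low libraries. The difference between the sets was 4.18, which did not pass over all genes (adjusted p = 0.526, limma).

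Gapdh also lay in opposite directions, at 2.63 and -0.90, with a difference of 3.53 (adjusted p = 1.00, limma).

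Hhex, a homeobox gene of early endoderm, read 1.73 and 3.56 RPKM with activin A and 4.06 and 3.74 RPKM with SB431542 in the Trim33-high libraries. In the Trim33-low libraries it read 3.74 and 4.43 against 3.67 and 3.48 RPKM. The difference between the sets was -0.62 (adjusted p = 1.00, limma).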

How the results depend on the processing

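Lefty1, Sumo2, Fgf15 and Smad7 were called under most alternatives. Their direction was largely fixed in advance, because the alternatives re-use the same libraries with groups far apart. The filter, the fit over all 8 libraries and the replicate block leave the log2 difference itself unchanged. In the Trim33-low libraries Lefty1, Fgf15 and Smad7 lay the same way, but Sumo2 lay the other way, at -1.57. With the median-ratio scaling, a pseudocount of 0.5 or a mean of at least 5 RPKM, again 4 genes were higher and 0 lower, and the 4 were the same genes. With quantile normalization 3 were called, and the list members called went from 2 to 1 because Smad7 dropped out (adjusted p = 0.0864, limma). Without the filter 18023 genes were tested, 1 was called and 1 higher (Sumo2), and 0 list members were called, with adjusted p = 0.267 for Lefty1, 0.271 for Fgf15 and 0.606 for Smad7 (limma). In the fit over all 8 libraries Lefty1, Smad7, Fgf15, Chst15 and Epha2 were called and Sumo2 was not (adjusted p = 0.159, limma).

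Same-numbered activin A and SB431542 libraries deviated together (r = 0.37 in the Trim33-high and 0.61 in the Trim33-low libraries), but with 2 pairs the labels do not show that the numbers pair the samples. With the replicate block 104 genes were called, 85 higher and 19 lower, with the 4 called genes among the 104, and 20 list members; for the difference between library sets the block gave 0. Leaving out each replicate gave 21 to 122 called genes, 16 to 103 higher and 5 to 19 lower, and 8 to 19 list members. The counts were 21 without activin A replicate 1, 22 without activin A replicate 2, 46 without SB431542 replicate 1 and 122 without SB431542 replicate 2. The 4 genes were called in each. These fits and the block have 1 residual degree of freedom, so limma drew the spread almost wholly from other genes. In the leave-out fits the lone library of a group is assumed to vary like the others, and their higher counts are not taken as more change. The block keeps all 4 libraries. Whether its higher count comes from the borrowed spread or from removing a shared replicate effect was not tested.

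In the Trim33-low libraries leaving out each replicate gave 0 to 12 called genes, 0 to 10 higher and 0 to 2 lower; Smad7 was lost without activin A replicate 1 or 2. The test of the difference between the sets gave 0 to 1 called and 0 to 1 higher, the 1 being Sumo2 without activin A replicate 1 or 2 of the Trim33-low libraries. Small log2 differences changed sign: Foxh1 was 0.0093 with quantile normalization and 0.0026 with median-ratio scaling, and Gdf3 was 0.016 with quantile normalization. Leaving out each replicate gave -0.29 to 0.46 for Acvr1b, -0.033 to 0.062 for Eif2s3y, -0.050 to 0.040 for Foxh1, -0.28 to 0.22 for Gdf3, -0.10 to 0.085 for Smad3, -0.092 to 0.13 for Smad4, -0.36 to 0.64 for T, -0.20 to 0.56 for Tgfbr1 and -0.17 to 0.33 for Tgif1. The cause of these changes was not tested.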
